A study of Mus musculus with 12 samples.

Results

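Taurine synthesis and bile acid conjugation are covered here by 5 genes, Csad, Cdo1, Baat, Slc27a5 and Slc6a6. They were given by symbol and found among the 55359 genes of the count table through their Ensembl gene IDs, and all 5 passed the filter on low counts that left 15274 genes for testing. RNA-seq counts came from livers of male C57BL/6NTac mice, with 4 livers in each of 3 groups. The lean group was kept on normal chow and injected with Control-mRNA. The HFD control group was kept on a high-fat diet and injected with the same-named Control-mRNA. The NM-FGF19 group was kept on the high-fat diet and injected with NM-FGF19 mRNA, which encodes a non-mitogenic form of the gut hormone FGF19. All groups were given lipid nanoparticles weekly for 6 weeks and were killed 24 hours after the last dose. The labels state an age of 24 weeks, 21 weeks of diet before treatment and 28 weeks of feeding in all, so the age is uncertain. Columns of the HFD control group alone carry the name mOX40L, and whether it names the control mRNA of that group is not stated. The labels do not say that each replicate is a separate mouse, and p-values measure only the spread between these samples.

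Taurine is made in hepatocytes from cysteine. Cysteine dioxygenase, encoded by Cdo1, oxidises cysteine to cysteine sulfinic acid, and cysteine sulfinic acid decarboxylase, encoded by Csad, turns this into hypotaurine, which is then oxidised to taurine. Slc6a6 encodes the sodium-dependent transporter that brings taurine into cells. In the other arm, bile acid CoA ligase (Slc27a5) activates bile acids and bile acid-CoA:amino acid N-acyltransferase (Baat) joins them to taurine, the main conjugating amino acid in mice. Conjugated bile acids are secreted into bile, and the hormone FGF19, or FGF15 in mice, signals through FGFR4 and beta-klotho to repress bile acid synthesis.

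The results turned on Csad (ENSMUSG00000023044.3, chromosome 15), so the 250 bases before each of its annotated starts in RefSeq (GRCm38.p6, an older build than the mm39 used for counting) are given 5′ to 3′ on the minus strand. The first lies at chr15:102205053-102205302 and the second at chr15:102189044-102189293, and capitals mark the matches of the motif search.
Csad start 1: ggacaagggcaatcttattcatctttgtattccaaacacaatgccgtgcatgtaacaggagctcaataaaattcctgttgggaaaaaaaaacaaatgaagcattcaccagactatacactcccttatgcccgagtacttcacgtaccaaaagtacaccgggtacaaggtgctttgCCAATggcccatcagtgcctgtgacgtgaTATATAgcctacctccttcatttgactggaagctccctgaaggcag
Csad start 2: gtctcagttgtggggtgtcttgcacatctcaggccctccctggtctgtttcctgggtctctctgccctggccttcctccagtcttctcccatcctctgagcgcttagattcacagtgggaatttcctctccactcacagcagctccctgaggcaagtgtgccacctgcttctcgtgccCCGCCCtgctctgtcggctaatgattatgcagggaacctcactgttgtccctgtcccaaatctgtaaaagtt
Both strands were searched for the nuclear receptor hexamer AGGTCA and for its extended form AAGGTCA, which contains the hexamer. The other motifs searched were the E-box CACGTG, the CCAAT box, the TATA box TATAAA, the TATA-like element TATATA and the GC box GGGCGG. Start 1 held CCAAT from 75 to 71 bases before the start, a motif present in 33.8% of 32851 promoter windows of the same length. It also held TATATA from 46 to 41 bases before the start, present in 5.25%. Start 2 held GGGCGG on the opposite strand, 72 to 67 bases before the start, present in 32.7%. The other 4 motifs had no match in these letters. The hexamer was present in 14.0% of all windows, its extended form in 4.08%, the E-box in 6.02% and the TATA box in 12.4%. Start 2 lay 15 bases from the start of the transcript Csad-201 in GENCODE M21, and start 1 lay 328 bases from the nearest transcript start. The counts are summed per gene and do not say which start was in use.

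Libraries held 23743415 to 33257260 counts. Levels are counts-per-million values (CPM) after TMM scaling of the library totals. A change is a log2 fold change with its SE, and a gene is called where its adjusted p in edgeR (quasi-likelihood test, Benjamini-Hochberg over the 15274 genes) is under 0.05. The diet and the treatment comparison share the HFD control libraries and are not independent of each other. The comparison of NM-FGF19 with lean livers shares libraries with each of them and differs in both diet and mRNA. On the first 2 principal components the libraries farthest from their group means were lean 3 (distance 59.9) and HFD control 3 (46.1). NM-FGF19 4 (43.3) and HFD control 2 (40.6) were close to the latter. All 12 hepatocyte markers listed were detected in every group, with Alb at a mean of 54574 CPM in lean livers, 33264 CPM in HFD control livers and 75269 CPM in NM-FGF19 livers. Of the 5 adipocyte markers listed, Plin1 and Lep had 0 counts in lean and HFD control livers, and Adipoq and Retn were at means of at most 0.0404 CPM in every group. Cfd, the other one, was at 0.0465 ± 0.0929 CPM in lean, 10.03 ± 8.46 CPM in HFD control and 0.0756 ± 0.127 CPM in NM-FGF19 livers (SD, n = 4). It was called higher on the diet (adjusted p = 0.00848) and lower with NM-FGF19 than in HFD control (adjusted p = 0.0294), the comparison in which Csad was lower, and its part in the results was not tested.

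Csad fell in livers given NM-FGF19. It stood at 86.1, 96.4, 158 and 110 CPM in lean livers 1 to 4, at 161, 161, 205 and 95.1 CPM in HFD control livers 1 to 4, and at 18.1, 9.31, 18.2 and 25.3 CPM in NM-FGF19 livers 1 to 4. The highest NM-FGF19 liver was below every lean and every HFD control liver, and the lowest HFD control liver still had 3.75 times the level of the highest NM-FGF19 liver. Against HFD control the log2 change was −3.13 ± 0.32, an 8.77-fold lower level (adjusted p = 0.00487, n = 4 per group). Against lean it was −2.67 ± 0.32, a 6.35-fold lower level (adjusted p = 0.00324). Of the genes tested, 0 had a smaller adjusted p against HFD control and 16 had a lower log2 change. Between HFD control and lean livers the log2 change was 0.46 ± 0.30 (adjusted p = 0.369), with overlapping groups. The fall was called in all 21 alternative fits of both comparisons, including those without lean 3 and HFD control 3.

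**Figure D1:**
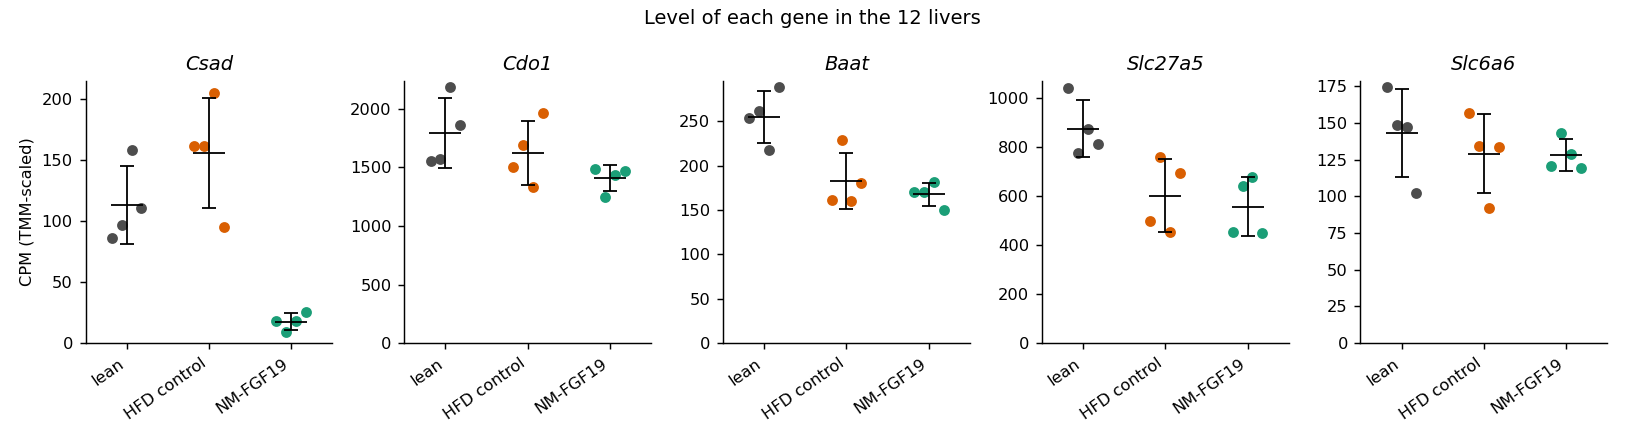
TMM-scaled CPM (linear axes from 0) of each gene in the 12 livers, with points for libraries in order of replicate number and black bars for the mean and SD of 4. Csad in the NM-FGF19 livers, at 9.31 to 25.3 CPM, sits below all other livers, while the 3 groups overlap in Slc6a6.

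These livers were sequenced as bulk tissue, so fewer cells of a type and less RNA per cell cannot be told apart. The summed level of the 12 hepatocyte markers was 67343 to 91605 CPM in HFD control and 110511 to 157984 CPM in NM-FGF19 livers, a sum to which Alb contributed most. Of the 12, 0 were called between these groups, and their median log2 change was 0.19. Alb was at 1.18 (adjusted p = 0.0598), Apoa1 at 0.74, Serpina1a at 0.68 and Trf at 0.60. In each of these every NM-FGF19 liver was above every HFD control liver, as in 3.23% of all genes tested. Ttr and Hnf4a were at 0.01 each, and only Tat at −0.40 and Pck1 at −0.70 were below 0. Csad also overlaps a gene on the opposite strand, Zfp740, which shares 278 bases, or 7.26%, of the exonic length of Csad. Zfp740 stood at 36.3 ± 2.23 CPM in HFD control and 32.2 ± 2.79 CPM in NM-FGF19 livers (SD, n = 4), a log2 change of −0.17 ± 0.10 (adjusted p = 0.699).

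Of the 5 genes, edgeR called only Csad. Between NM-FGF19 and HFD control 1 of 5 was lower and 0 were higher, where 0.432% of all genes tested were called and 0.151% were called lower. DESeq2 also called 1 of 5 there, where it called 2.06% of all genes, and groups did not overlap for 1 of 5, where 2.38% of all genes were lower with no overlap. Between NM-FGF19 and lean 1 of 5 was lower, where 1.49% of all genes were called and 0.484% were called lower. Between HFD control and lean 0 of 5 were called, where 8.33% of all genes were called. At an unadjusted p under 0.05 Baat and Slc27a5 were lower in the diet comparison, which 24.6% of all genes reached in either direction. The median log2 change of the 5 genes was −0.15 between the diets, −0.12 between NM-FGF19 and HFD control and −0.60 between NM-FGF19 and lean, beside −0.023, −0.00046 and −0.012 over all genes tested.

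**Figure D2:**
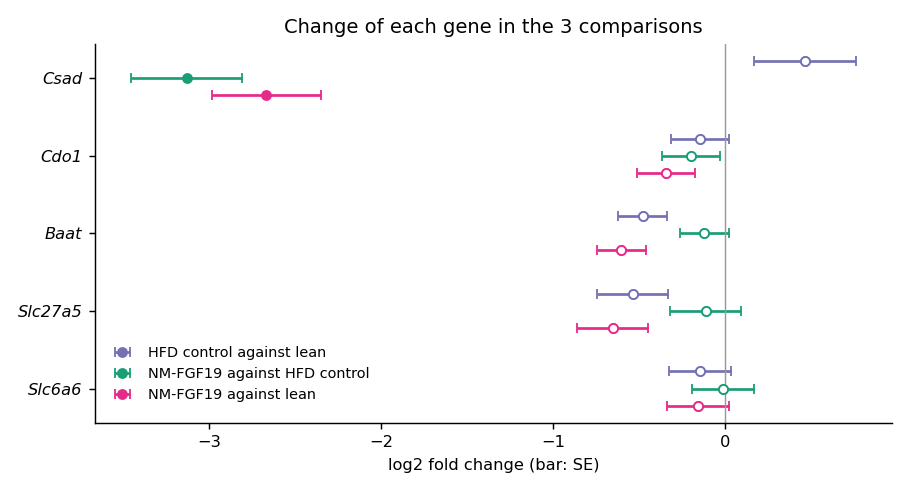
Log2 fold change of each gene (horizontal axis, bars of 1 SE) in the 3 comparisons, with filled points for an adjusted p under 0.05 in edgeR. The filled points are both of Csad, at −3.13 and −2.67.

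Cdo1 (ENSMUSG00000033022.9, chromosome 18), the dioxygenase step before Csad, had the highest level per exon length of the 5 genes in every liver. It stood at 1556, 1573, 2190 and 1865 CPM in lean livers, at 1501, 1695, 1329 and 1964 CPM in HFD control livers and at 1486, 1250, 1439 and 1471 CPM in NM-FGF19 livers. The NM-FGF19 livers overlapped with HFD control and lay just below the lowest lean liver. The log2 change was −0.20 ± 0.17 against HFD control (adjusted p = 0.812) and −0.35 ± 0.17 against lean (adjusted p = 0.322). Between the diets it was −0.15 ± 0.17 (adjusted p = 0.647), and it turned to 0.17 when libraries were scaled by their totals alone and to 0.07 without lean 3 and HFD control 3.

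The balance of the enzyme transcripts of taurine synthesis was read from their ratio, which was not tested. Csad counts as a percentage of Cdo1 counts of the same library, a ratio that no scaling between libraries affects, were 5.53, 6.13, 7.22 and 5.91% in lean livers. In HFD control livers they were 10.7, 9.5, 15.4 and 4.84%, and in NM-FGF19 livers 1.22, 0.745, 1.26 and 1.72%. The NM-FGF19 values lay below all others, and HFD control liver 4 lay below the lean livers while the other 3 HFD control livers lay above them. In the conjugation arm, Baat counts were 24.4 to 35.4% of Slc27a5 counts in lean, 26 to 35.3% in HFD control and 26.4 to 37.3% in NM-FGF19 livers, so this ratio overlapped between the groups.

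**Figure D3:**
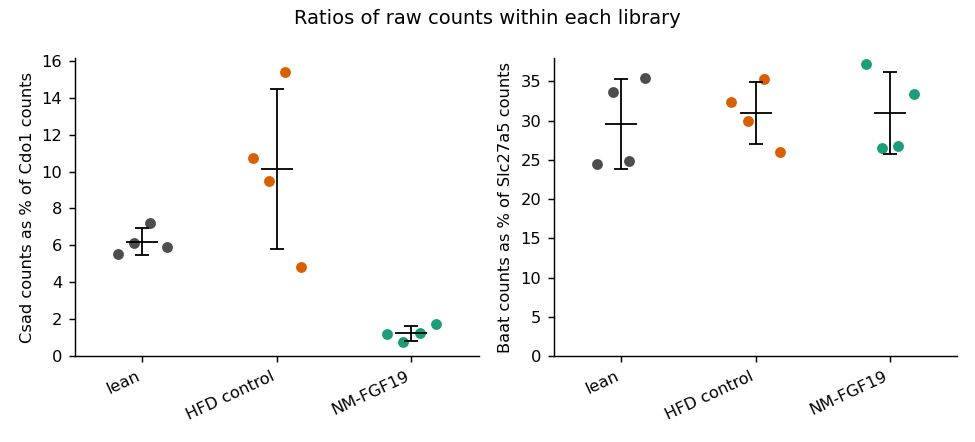
Counts of Csad as a percentage of Cdo1 counts (left) and of Baat as a percentage of Slc27a5 counts (right) within each library, with bars for the mean and SD of 4 livers. The left ratio is 0.745 to 1.72% in NM-FGF19 livers against at least 4.84% in the others, and the right ratio overlaps in all groups.

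Slc6a6 (ENSMUSG00000030096.9, chromosome 6), the taurine transporter gene, had overlapping levels in the 3 groups. It stood at 174, 148, 147 and 102 CPM in lean, at 157, 134, 92 and 133 CPM in HFD control and at 121, 143, 129 and 119 CPM in NM-FGF19 livers. The log2 change was −0.01 ± 0.18 between NM-FGF19 and HFD control (adjusted p = 0.993), −0.15 ± 0.18 between the diets (adjusted p = 0.668) and −0.16 ± 0.18 between NM-FGF19 and lean (adjusted p = 0.715). The sign of each of these changes depended on the fit. Immune and stromal cells also express this transporter. The 9 recruited macrophage markers listed summed to 131 to 192 CPM in lean, 182 to 474 CPM in HFD control and 132 to 249 CPM in NM-FGF19 livers, and the 8 stellate markers to 191 to 247, 420 to 1047 and 299 to 886 CPM. Lyz2 contributed most to the macrophage sum. Of the 9 macrophage markers, 6 were called higher on the diet and 4 in NM-FGF19 against lean. Of the 8 stellate markers, 4 and 2 were. Of the 6 resident Kupffer cell markers, 5 went the other way and were called lower on the diet. The other, Cd5l, had a log2 change of 0.13 (adjusted p = 0.886). The 6 summed to 423 to 578 CPM in lean, 125 to 461 CPM in HFD control and 91.5 to 376 CPM in NM-FGF19 livers. Cd5l contributed most to this sum, at means of 189, 206 and 122 CPM in that order. The part of these cell type markers in the Slc6a6 level was not tested.

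Slc27a5 (ENSMUSG00000030382.16, chromosome 7), for the CoA ligase of conjugation, had lower levels in both high-fat groups without passing the test. It stood at 1039, 774, 873 and 814 CPM in lean, at 499, 761, 452 and 696 CPM in HFD control and at 455, 643, 677 and 449 CPM in NM-FGF19 livers. In TMM-scaled CPM every liver on the high-fat diet was below every lean liver. By library totals alone, HFD control livers 2 and 4 were not below every lean liver. In both high-fat groups 2 livers lay at or under 499 CPM and 2 at or above 643 CPM. The log2 change was −0.54 ± 0.21 between the diets (adjusted p = 0.122), −0.65 ± 0.21 between NM-FGF19 and lean (adjusted p = 0.126) and −0.11 ± 0.20 between NM-FGF19 and HFD control (adjusted p = 0.938). DESeq2 called the difference between NM-FGF19 and lean (adjusted p = 0.0341). It was the only 1 of 21 alternatives to do so, and 0 of 21 called the diet difference. With library totals alone the diet change of Slc27a5 was −0.24 (adjusted p = 0.397).

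Baat (ENSMUSG00000039653.10, chromosome 4), for the acyltransferase that completes conjugation, stood at 254, 261, 217 and 288 CPM in lean livers. It was at 162, 228, 160 and 181 CPM in HFD control and at 170, 170, 181 and 150 CPM in NM-FGF19 livers. HFD control liver 2 alone of the high-fat livers reached the lean range. The log2 change was −0.48 ± 0.14 between the diets (adjusted p = 0.0545), −0.60 ± 0.14 between NM-FGF19 and lean (adjusted p = 0.055) and −0.12 ± 0.14 between NM-FGF19 and HFD control (adjusted p = 0.887). Without HFD control liver 2 the test called Baat lower between the diets (log2 change −0.61, adjusted p = 0.0182) and between NM-FGF19 and lean (adjusted p = 0.037), and without HFD control liver 3 also the latter (adjusted p = 0.0493). It was also called without lean 3 and HFD control 3 between NM-FGF19 and lean (adjusted p = 0.0444). DESeq2 called both (adjusted p = 0.0118 and 0.00207), with 14.6% and 6.36% of all genes called in these comparisons. In all, 2 of 21 alternatives called Baat between the diets and 4 of 21 between NM-FGF19 and lean (highest adjusted p 0.426 and 0.152). With 1 library left out the highest adjusted p between the diets was 0.162. With library totals alone the Baat change between the diets was −0.18 (adjusted p = 0.426). Groups that did not overlap were 4 of 5 genes lower in NM-FGF19 than in lean livers, all but Slc6a6, where 4.84% of all genes had this pattern, and 1 of 5, Slc27a5, lower between the diets, where 6.89% had it. These patterns are on the TMM scale. By library totals alone the groups overlapped for Cdo1 and Baat between NM-FGF19 and lean and for Slc27a5 between the diets. Summed hepatocyte markers were 107871 to 147813 CPM in lean, 67343 to 91605 CPM in HFD control and 110511 to 157984 CPM in NM-FGF19 livers. Alb contributed most to this sum. The median log2 change of the 12 markers against lean was −0.55 in HFD control and −0.16 in NM-FGF19 livers. In that order, 2 and 0 of the 12 markers were called lower, and 0 were called higher. Their part in the levels of Slc27a5 and Baat was not tested.

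On the scale of CPM per kilobase of exon (union of GENCODE M21 exons), the order of mean levels was the same in lean and HFD control livers. In lean livers Cdo1 led at 1092 ± 182 CPM per kilobase, before Slc27a5 at 359 ± 47.8, Baat at 131 ± 15.1, Csad at 29.4 ± 8.31 and Slc6a6 at 16.9 ± 3.55 (SD, n = 4). The ranges of neighbours in this order did not overlap in lean livers. In HFD control livers Csad was at 40.6 ± 11.8 and Slc6a6 at 15.3 ± 3.19. In NM-FGF19 livers Csad came last at 4.63 ± 1.71 CPM per kilobase, below Slc6a6 at 15.1 ± 1.29, while Cdo1 was at 859 ± 66.5.

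Other genes of the pathway came from 8 lists, on which 76 of 82 genes were tested. Between NM-FGF19 and HFD control 1 of the 76 was lower and 0 were higher. This was Cyp8b1, for the 12-alpha-hydroxylase that makes cholic acid, which was at 368 ± 65.5 CPM in HFD control and 112 ± 31.5 CPM in NM-FGF19 livers (SD, n = 4), which is −1.72 ± 0.22 in log2 (edgeR adjusted p = 0.00699). Cyp7a1, for the rate-limiting enzyme of bile acid synthesis, stood at 246, 241, 73.6 and 386 CPM in HFD control and at 5.15, 20.2, 3.28 and 5.7 CPM in NM-FGF19 livers. Its groups did not overlap, and its log2 change of −4.79 ± 0.95 missed the threshold (adjusted p = 0.0672), though DESeq2 and limma voom called it (adjusted p = 1.53e-05 and 0.031). In all, 5 of 21 alternatives called Cyp7a1 here, among them 2 of 12 with 1 library left out (highest adjusted p 0.232). Nr0b2, the bile acid-induced repressor SHP, was at 23.7 ± 10.5 and 38.8 ± 12.2 CPM (adjusted p = 0.774). The receptor genes Fgfr4 and Klb had log2 changes of 0.07 ± 0.22 and 0.33 ± 0.24 (adjusted p = 0.975 and 0.771), and the sign for Fgfr4 turned with library totals alone.

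Genes that supply cysteine, use it otherwise or serve other routes to taurine did not pass the test between NM-FGF19 and HFD control. All 8 genes of methionine to cysteine conversion stayed short of the threshold, with a median log2 change of −0.17. So did all 12 tested on the list of other fates of cysteine and other routes to taurine, with a median of −0.25. Against lean, Bhmt, which remethylates homocysteine with betaine, was lower by a log2 change of −1.75 ± 0.28 (adjusted p = 0.0122), from 1743 ± 525 to 519 ± 168 CPM. Vnn1, whose pantetheinase releases cysteamine, another precursor of taurine, rose on the high-fat diet, with 4.63 ± 2.67 CPM in lean and 75.7 ± 49.7 CPM in HFD control livers, or 4.02 ± 0.60 in log2 (adjusted p = 0.00516). It was at 54.6 ± 21.1 CPM with NM-FGF19 (adjusted p = 0.0187 against lean, called in 18 of 21 alternatives, with 0.0501 without lean 3, 0.0503 without NM-FGF19 4 and a highest value of 0.0898). Gclc, the catalytic subunit of glutathione synthesis from cysteine, rose on the diet by a log2 change of 1.02 ± 0.23 (adjusted p = 0.0201). Its call held in 17 of 21 alternatives. Among the lost ones were those without HFD control 1 or HFD control 3 (adjusted p = 0.0555 and 0.058) and without lean 3 and HFD control 3 together (0.0928).

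Among genes of taurine use and transport, 2 were lower on the diet. Pter, which encodes a hydrolase of N-acetyltaurine, was at 101 ± 20.5 CPM in lean and 59.5 ± 5.4 CPM in HFD control livers, or −0.76 ± 0.15 in log2 (adjusted p = 0.0127). Its call held in 19 of 21 alternatives and was lost with library totals alone (−0.43, adjusted p = 0.0796) and without lean 3 and HFD control 3 (adjusted p = 0.0586). Slc6a13, a GABA transporter gene whose product also carries taurine in liver, was at 181 ± 19 CPM and 137 ± 9.53 CPM, or −0.41 ± 0.12 in log2 (adjusted p = 0.0455). With 1 library left out, 2 of 12 fits called Slc6a13 (highest adjusted p 0.139). In NM-FGF19 livers Pter was at 91.5 ± 9.83 CPM and Slc6a13 at 164 ± 11.3 CPM, in each case with every liver above every HFD control liver, and neither passed against HFD control (adjusted p = 0.121 and 0.536). Of all genes tested, 3.23% had this pattern.

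In transport of conjugated bile acids, Abcc3, an exporter towards blood, rose on the diet, with 61.8 ± 25.4 CPM in lean and 289.9 ± 93.5 CPM in HFD control livers, or 2.23 ± 0.37 in log2 (adjusted p = 0.00772). Slc10a1, for the uptake transporter NTCP, was lower by −0.84 ± 0.24 (adjusted p = 0.05, under the threshold before rounding). With 1 library left out, 2 of 12 fits called it (highest adjusted p 0.113). Neither gene passed between NM-FGF19 and HFD control. Slc10a1 was at 0.59 ± 0.24 there (adjusted p = 0.479), with every NM-FGF19 liver above every HFD control liver, as in 3.23% of all genes tested. Abcc3 was at −0.84 ± 0.36 (adjusted p = 0.514), with overlapping groups. All 8 genes of the peroxisomal side chain steps that precede conjugation stayed short of the threshold in the 3 comparisons, among them Slc27a2, the other acyl-CoA ligase. Cyp27a1, of the alternative synthesis pathway, was lower on the diet (log2 change −0.50 ± 0.14, adjusted p = 0.0475), and 1 of 12 fits with 1 library left out called it (highest adjusted p 0.153). Between NM-FGF19 and HFD control Cyp27a1 was at −0.66 ± 0.14, short of the threshold (adjusted p = 0.0696). Every NM-FGF19 liver was below every HFD control liver in it, a pattern of 2.38% of all genes tested. Cyp27a1 was also lower in NM-FGF19 than in lean livers (−1.16 ± 0.14, adjusted p = 0.00324), as were Cyp8b1 (−1.77 ± 0.22, adjusted p = 0.00324) and Cyp7a1 (−4.32 ± 0.93, adjusted p = 0.0489). The Cyp7a1 call against lean held in 3 of 12 fits with 1 library left out (highest adjusted p 0.128), and its change was −3.30 without lean 1.

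**Figure D4:**
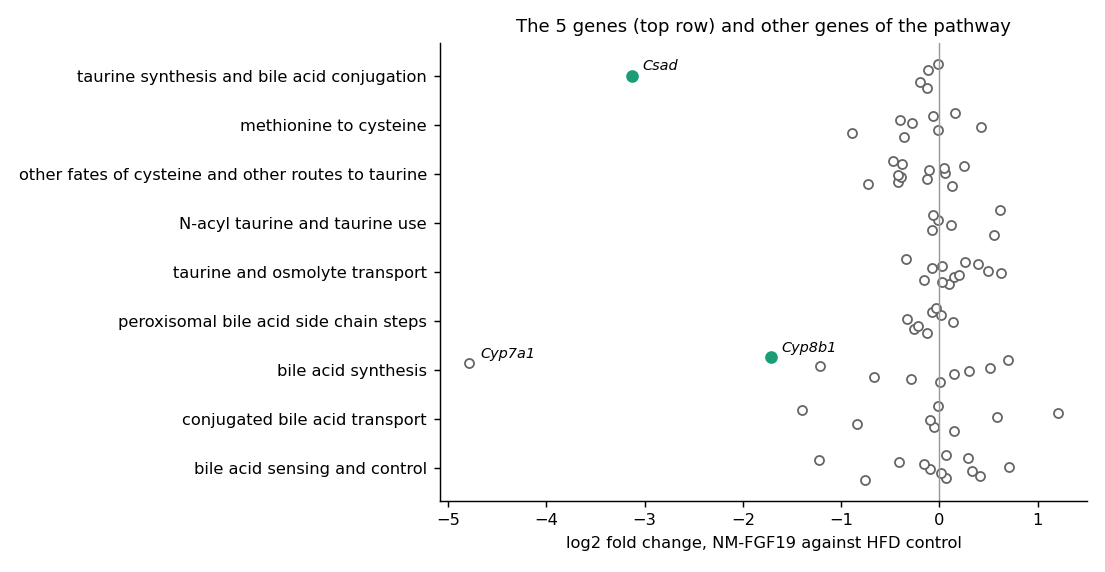
Log2 fold change between NM-FGF19 and HFD control (horizontal axis) of the 5 genes and of the 76 tested genes on 8 other lists, 1 point per gene, filled for an adjusted p under 0.05 in edgeR. Csad at −3.13 and Cyp8b1 at −1.72 are filled, and Cyp7a1 at −4.79 is open.

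The genes most like each of the 5 in pattern were found among 11015 others with a mean of at least 2 CPM, as the smallest root mean square difference of log2 CPM over the 12 libraries after each gene was centred on its mean. For Csad, whose own root mean square deviation from its mean was 1.46, these were Nat8f5 at a difference of 0.574, Cyp8b1 at 0.762 and G6pc at 0.839. Nat8f5, of the N-acetyltransferase 8 family and possibly sharing reads with its near copies, went from 5.04 ± 1.12 CPM in HFD control to 0.894 ± 0.441 CPM in NM-FGF19 livers, a log2 change of −2.48 ± 0.33 (adjusted p = 0.00745). G6pc, for the glucose-releasing phosphatase of gluconeogenesis, was at 319 ± 214 and 67.2 ± 34.5 CPM (log2 change −2.25 ± 0.56, adjusted p = 0.158, and called by DESeq2 at 0.00924). The nearest genes were Fbxo28, Morc2a and Fnbp4 for Cdo1 (0.11 to 0.119), Mrps31 and St7l for Baat (0.128 and 0.129), Dpyd, Hdhd2 and Hrg for Slc27a5 (0.164 to 0.165) and Tlk1, Zmym5 and Sfmbt1 for Slc6a6 (0.117 to 0.14). These 4 genes varied little themselves, with root mean square deviations of 0.225, 0.305, 0.392 and 0.248 in the same order.

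**Figure D5:**
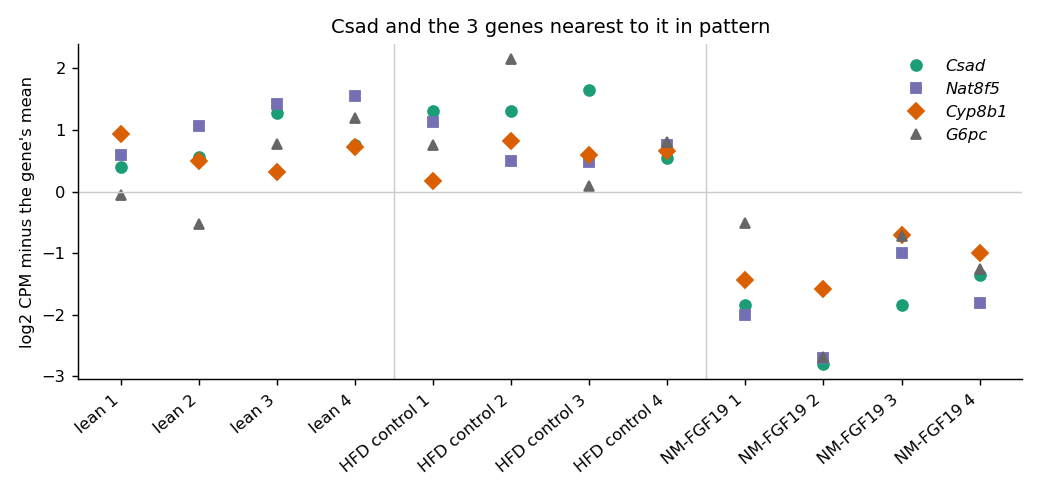
Log2 CPM (no prior count) minus the gene's mean over the 12 libraries (vertical axis) for Csad, Nat8f5, Cyp8b1 and G6pc in each library. All 4 genes are below their mean in the 4 NM-FGF19 livers, and G6pc is also below it in lean 1 and lean 2.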

How the data were processed

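RNA from liver sections was sequenced in 12 libraries, prepared with a strand-marking Illumina mRNA kit, per the labels' protocols. The authors deposited raw read counts per gene, made with Trimmomatic, STAR and featureCounts on mm39, per the submitters' processing notes. The sources used here do not give versions, annotation or strand setting, so reads of overlapping genes may be shared or lost.

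All 12 columns were matched to samples by the labels, with 0 left over. Symbols were found for 52083 of 55359 Ensembl IDs, and the other 3276 held 0.515% of counts. Counts of all 12 libraries entered one edgeR 4.0.16 fit (R 4.3.3) with group as the only term. It used TMM scaling, filterByExpr with a minimum count of 10 and the robust quasi-likelihood F test, 2-sided. The SE is that implied by the F statistic. Replicates correlated at 0.946 to 0.980 in log2 CPM (prior count 2) and differed by far more than counting error (lowest chi-square per degree of freedom 37.6). A floor of 3 counts equals 0.0792 to 0.153 CPM. The scripts were tested on simulated data.

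Alternatives were DESeq2 1.42.0, limma voom (3.58.1), RLE factors, library totals alone, no filter, a stricter filter (1 CPM in 4 libraries), a fit of only the 2 groups at hand, a block for replicate number, and each library left out in turn. Leaving out lean 3 and HFD control 3 was added after seeing the data. Members and gene lists were chosen with earlier results of these data known. Genes named beside the 5 are up to 2 called per list and direction, 5 fixed ones (Cyp7a1, Cyp8b1, Nr0b2, Fgfr4, Klb) and the 3 nearest in pattern to each of the 5, of which 1 is not reported here. Zfp740 was named for its overlap with Csad, and Slc27a2 and the cell type markers after their values were seen. Promoters were found in the RefSeq table for Csad, with 2 entries, and not for the other 4 genes. Mice killed before treatment are not analysed here.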

Additional observations from a re-analysis of the deposited data

Results flagged for a closer look

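In 30 groups of 4 libraries (the 5 genes and Cyp7a1, Cyp8b1, Nr0b2, Fgfr4 and Klb), 3 groups had a library whose gap to the nearest other, as a share of the group's range, exceeded Dixon's critical value for 4 samples. Chance gives this in about 1 of 20 groups, and none of the 3 was in Csad, Cdo1, Baat, Slc27a5 or Slc6a6. Cyp7a1 was at 20.2 CPM in NM-FGF19 2, against 3.28 to 5.7 CPM in the other NM-FGF19 livers. Nr0b2 was at 62.8 CPM in lean 4, against 11.6 to 19.6 CPM in the other lean livers. Fgfr4 was at 73.8 CPM in lean 3, against 52.2 to 55.4 CPM in the other lean livers.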

How the results depend on the processing

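The fall of Csad held its direction and its call in all 21 alternatives of both comparisons of NM-FGF19 livers. Its log2 changes were −3.35 to −2.93 against HFD control (adjusted p up to 0.0356) and −2.89 to −2.44 against lean (up to 0.0199). Of the 5 genes, 0 were called between the diets in the reported fit, and 0 to 1 with 1 library left out and 1 with DESeq2, Baat in each case. Between NM-FGF19 and lean 1 was called, and 1 to 2 with 1 library left out. It was 3 with DESeq2 (Csad, Baat and Slc27a5) and 2 without lean 3 and HFD control 3 (Csad and Baat). Of all genes, DESeq2 called 14.6% between the diets and 6.36% between NM-FGF19 and lean, where edgeR called 8.33% and 1.49%. The cause of these differences between fits was not tested.

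Library totals alone moved the median of all genes to 0.29 between the diets, −0.13 between NM-FGF19 and HFD control and 0.17 between NM-FGF19 and lean. With them Cdo1 and Slc6a6 turned to 0.17 and 0.16 between the diets, Cyp8b1 to 0.23, Slc6a6 to 0.0174 between NM-FGF19 and lean and Fgfr4 to −0.0572 between NM-FGF19 and HFD control. Without lean 3 and HFD control 3, Cdo1 and Slc6a6 were at 0.0714 and 0.0218 between the diets and Fgfr4 at −0.0837 between NM-FGF19 and HFD control. In that last comparison Slc6a6 was at 0.0114 with limma voom and 0.0028 with the replicate block. With 1 library left out, Slc6a6 ranged from −0.14 to 0.0849, Baat from −0.19 to 0.0033, Slc27a5 from −0.23 to 0.0184 and Fgfr4 from −0.0765 to 0.33 there, and Cyp8b1 from −0.14 to 0.0798 between the diets. None of these changes passed the test in either direction.

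Counts over all genes moved more. Between the diets 1272 were called (770 higher, 502 lower), and 2220 with DESeq2, 2611 with library totals alone (2383 higher, 228 lower), 593 with the replicate block, 485 without lean 3 and HFD control 3 and 544 to 1520 with 1 library left out. Between NM-FGF19 and HFD control 66 were called (43 higher, 23 lower), and 289 with DESeq2, 56 with library totals alone (26 higher, 30 lower), 38 with only these groups, 18 with the block, 38 without lean 3 and HFD control 3 and 18 to 84 with 1 library left out. Between NM-FGF19 and lean 228 were called (154 higher, 74 lower), and 969 with DESeq2, 112 with limma voom, 398 with library totals alone (346 higher, 52 lower), 118 with only these groups, 40 with the block and 65 to 276 with 1 library left out. Counts moved by over 1.5 times without lean 2, lean 4, HFD control 1, 3 or 4 between the diets. They did so without HFD control 1, 3 or 4 or NM-FGF19 1, 2 or 4 between NM-FGF19 and HFD control, and without lean 2, 3 or 4, HFD control 1 or NM-FGF19 1 or 4 between NM-FGF19 and lean. The labels state no pairing by replicate number, and the correlations showed no sign of one, though they cannot exclude a shared batch. Deviations of same-numbered libraries correlated at −0.36 to 0.07, with 0 of 12 pairs over 0.1, and the best partner in another group had the same number in 2 of 24 cases. With the block, Csad was at −3.16 against HFD control (adjusted p = 0.00884) and −2.66 against lean (0.019). The block lost the calls of Gclc, Slc6a13, Cyp27a1 and Slc10a1 between the diets (adjusted p = 0.0512, 0.11, 0.111 and 0.068) and of Vnn1 and Cyp7a1 between NM-FGF19 and lean (0.0898 and 0.131). Library totals alone moved Slc6a13 to −0.10 and Cyp27a1 to −0.19 between the diets (0.653 and 0.359). How often the test would call changes the size of those of Baat and Slc27a5 with 4 livers per group is not reported here. A gene that was not called is not thereby shown to be unchanged.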

Other observations

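In each of the 3 groups the liver with the lowest Csad was also the one with the highest Cyp7a1, a pattern noticed after the values were seen. In lean livers this was lean 1, with Csad at 86.1 CPM (next 96.4) and Cyp7a1 at 431 CPM (next 155). In HFD control livers it was HFD control 4, at 95.1 CPM (next 161) and 386 CPM (next 246). In NM-FGF19 livers it was NM-FGF19 2, at 9.31 CPM (next 18.1) and 20.2 CPM (next 5.7). Across the groups both genes were lowest in NM-FGF19 livers. The pattern rests on 1 liver per group and was not tested. At the other end it differed between the groups. HFD control 3, with the highest Csad of its group (205 CPM), had the lowest Cyp7a1 (73.6 CPM). By contrast, lean 3, with the highest Csad of its group (158 CPM), had the second highest Cyp7a1 (155 CPM), and so did NM-FGF19 4 (25.3 and 5.7 CPM).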
